A study of Mus musculus with 8 samples.

Results

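Crypt base columnar cells are the dividing stem cells at the bottom of the intestinal crypt, and 10 genes that mark them were followed in RNA from small intestinal crypts of C57BL/6N mice. The markers, chosen by gene symbol, were Lgr5, Ascl2, Olfm4, Smoc2, Rgmb, Tnfrsf19, Prom1, Slc12a2, Cdca7 and Msi1, 10 of the 55880 genes in the count table. All 10 passed the expression filter, which left 14897 genes for testing. The series holds 4 libraries labelled miR-29ab1-/- (KO), from mice whose genotype label names a homozygous loss of the miR-29a and b-1 cluster, and 4 labelled WT, all taken before irradiation. The title of the study concerns the fate of intestinal stem cells, miR-29ab and energy metabolism by fatty acid oxidation. The labels give no age, litter, day or batch, and do not say how the deletion was made or how far it reaches. The p-values of the group comparison set the difference between groups against the spread between libraries within a group. They rest on these 8 libraries alone.

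These cells renew the epithelium by dividing between Paneth cells, which feed them Wnt and Notch signals. Wnt signalling, amplified by R-spondins that bind Lgr5, keeps the stem cell genes on, and bone morphogenetic protein (BMP) signalling towards the villus turns them off. Daughter cells that leave the crypt base divide several more times as transit-amplifying cells and then become absorptive enterocytes or secretory cells. In RNA from whole crypts, fewer stem cells and less marker RNA per stem cell cannot be told apart.

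MiR-29 acts by pairing its seed, bases 2 to 8 of the mature RNA, with sites in 3' untranslated regions. The mature sequences of the family are shown because they define the sites looked for in the markers; the seed is in capitals and is AGCACCA in all of them (RefSeq, GRCm38.p6). The cluster named in the genotype lies on chromosome 6, and the miR-29c gene on chromosome 1 lies beside Mir29b-2, which gives the same miR-29b sequence.
mmu-miR-29a-3p: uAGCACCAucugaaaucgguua
mmu-miR-29b-3p: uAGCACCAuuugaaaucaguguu
mmu-miR-29c-3p: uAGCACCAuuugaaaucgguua

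Of the 10 markers, 2 held a miR-29 site in their longest annotated 3' untranslated region (GENCODE M21), and both sites were single 7-base matches. Cdca7 had TGGTGCT, the match to the whole seed, starting 1038 bases after the stop codon. Olfm4 had GGTGCTA, the match to seed bases 2 to 7 followed by an A, starting 241 bases after the stop codon. The sites are printed with 11 bases on either side, on the plus strand of GRCm38, with the site in capitals.
Cdca7, chr2:72486777-72486805: tactctgtctgTGGTGCTcagttggatct
Olfm4, chr14:80022160-80022188: cagcggctaggGGTGCTAtgagcctaata

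The other 8 markers had no match in regions of 529 bases (Ascl2) to 3957 bases (Rgmb). Among 12386 tested genes with such a region of at least 50 bases, 15.5% held TGGTGCT, 7.68% held GGTGCTA and 19% held either. A match is a description of letters and does not show that the microRNA acts there.

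Before the markers were compared, the labels were checked at the targeted locus. Mir29a had 0 counts in every library, and Mir29b-1 had 2, 5, 7 and 3 counts in labelled KO replicates 1 to 4, against 0 in each WT library. Counts of a deleted hairpin go against the label, so the groups are named by label throughout. Lncpint, a noncoding RNA gene beside the locus, was at 144 ± 24.7 CPM in libraries labelled KO and 0.775 ± 0.109 CPM in WT libraries (SD, n = 4 each; CPM is the count relative to the scaled library size). Gm27019, also read at this locus, had 227, 327, 290 and 252 counts in labelled KO replicates 1 to 4, against 0 in each WT library. The label therefore separates the libraries at this locus, while the direction of the deletion is taken from the label alone. Total counts were 13879472 to 17368666 per library. Epithelial genes were abundant in every library: Epcam, a surface protein of epithelial cells, was at 1421 to 3116 CPM in libraries labelled KO and 1578 to 1726 CPM in WT libraries. Lyz1, the lysozyme of Paneth cells, was at 5998 to 15846 CPM and 5618 to 10009 CPM in the same groups. The 12 fibroblast and smooth muscle genes summed to 15.4 to 27.0 CPM in libraries labelled KO and 12.1 to 69.4 CPM in WT libraries. The broadly expressed Vim reached 33.0 CPM, Dcn 14.2 CPM and Col3a1 10.2 CPM in a WT library. Pdgfra stayed at or below 0.13 CPM in every library.

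None of the 10 stem cell markers passed the test for a difference between libraries labelled KO and WT libraries, and the groups overlapped for every one of them. The 95% intervals of the ratios reached 2.32 at the upper end (Tnfrsf19) and 0.518 at the lower (Prom1), so differences of that size are not excluded. Lgr5, Rgmb and Tnfrsf19 had the highest ratios and Prom1 the lowest, all within the spread between libraries. Of the 10 markers, 0 passed the threshold in edgeR's quasi-likelihood test (adjusted p under 0.05), where 0.0201% of all tested genes did. At an unadjusted p under 0.05 the count was 0 of 10, against 2.70% of all genes, and DESeq2 and limma-voom also called 0. The adjusted p was 0.994 for 8 markers, 0.998 for Cdca7 and 0.9995 for Ascl2. Separate groups, with no overlap, occurred in 0 of 10 markers and 1.53% of all genes. Of the markers, 6 lay above 0 and 4 below, with a median log2 fold change of 0.012, while 52.0% of all genes lay above 0 with a median of 0.011. The mean log2 CPM of each marker was also compared by an exact two-sided permutation test over the 70 arrangements of libraries, whose smallest possible p is 0.0286; the smallest p among the markers was 0.343, for Tnfrsf19.

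**Figure D1:**
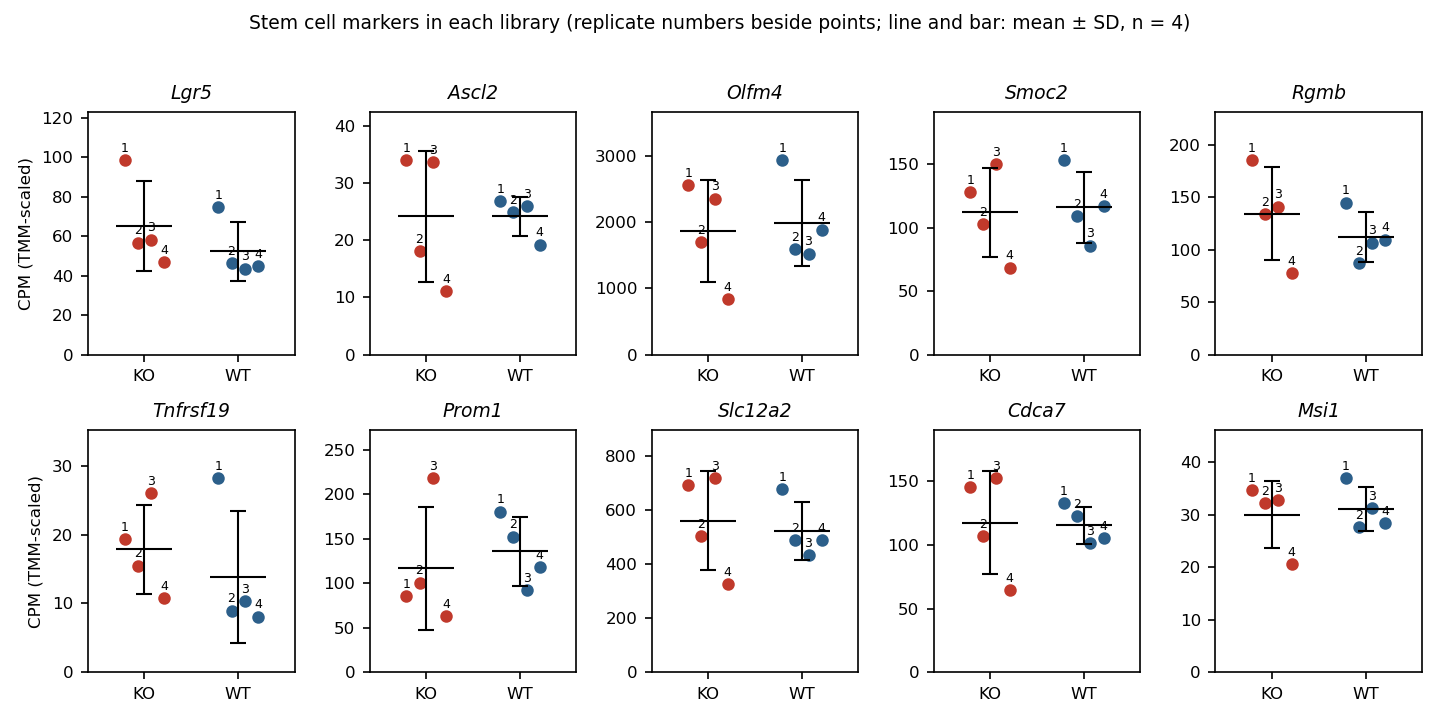
CPM of each marker in each library (points, numbered by replicate), with libraries labelled KO on the left of each panel and WT on the right; the line and bar are the mean and SD of 4 libraries. Labelled KO replicate 4 is the lowest point for 8 of the 10 markers, and the groups overlap in every panel.

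Lgr5 (ENSMUSG00000020140, chromosome 10, 115450311 to 115587780, minus strand, GRCm38) encodes the R-spondin receptor after which these stem cells are named. It was at 98.4, 56.7, 58.2 and 46.8 CPM in labelled KO replicates 1 to 4, against 74.5, 46.5, 43.4 and 44.9 CPM in WT replicates 1 to 4. Replicate 1 was the highest of each group, and the other 6 libraries lay close together. The log2 fold change was 0.31 (SE 0.26), a ratio of 1.24 with an approximate 95% interval of 0.874 to 1.77, and it was 0.043 without labelled KO replicate 1. A930009A15Rik, an overlapping gene on the opposite strand, had counts equal to 1.17% of those of Lgr5. Tnfrsf19 (chromosome 14, 60963875 to 61046490, minus strand), a receptor of the tumour necrosis factor family also called Troy, was at 19.3, 15.5, 26.0 and 10.7 CPM in labelled KO replicates 1 to 4. In WT replicates 1 to 4 it was at 28.2, 8.97, 10.3 and 8.07 CPM. All libraries labelled KO lay above 3 of the 4 WT libraries, and WT replicate 1 lay above them all. The log2 fold change of Tnfrsf19 was 0.37 (SE 0.43). Without WT replicate 1, singled out after its values were seen, it was 0.97 (SE 0.29). Leaving out any other single library gave 0.13 to 0.55. The fit without WT replicate 1 had an unadjusted p of 0.00925 and an adjusted p of 0.999 in edgeR's test. In that fit 1 of 10 markers and 4.06% of all genes were under an unadjusted 0.05. Since the library left out was the highest one, this p is a description and not a test. WT replicate 1 also had the highest summed level of 12 fibroblast and smooth muscle genes, 69.4 CPM, against 15.4 to 27.0 CPM in libraries labelled KO and 12.1 to 25.6 CPM in the other WT libraries; the part of this in the Tnfrsf19 level was not tested.

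Rgmb (chromosome 17, 15803188 to 15831039, minus strand), a membrane-anchored co-receptor for BMP ligands, was at 185, 134, 141 and 77.4 CPM in labelled KO replicates 1 to 4, against 145, 87.2, 106 and 109 CPM in WT replicates 1 to 4. Its log2 fold change was 0.26 (SE 0.25), a ratio of 1.20 with an interval of 0.850 to 1.69. Here 3 of the libraries labelled KO lay above 3 of the WT libraries, and labelled KO replicate 4 lay below them all. Without that replicate, singled out after its values were seen, the log2 fold change was 0.46 (SE 0.18). Its unadjusted p was 0.0332 and its adjusted p 0.9998 in edgeR's test, as a description and not a test. That was 1 of 10 markers under an unadjusted 0.05, where 3.31% of all genes were.

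Ascl2 (chromosome 7, 142966829 to 142969264, minus strand) encodes a basic helix-loop-helix transcription factor that maintains the stem cell state downstream of Wnt. It was at 34.0, 18.1, 33.7 and 11.1 CPM in labelled KO replicates 1 to 4, against 26.8, 24.9, 26.0 and 19.2 CPM in WT replicates 1 to 4. The libraries labelled KO held both the highest and the lowest values, and the WT libraries lay between them. The means were 24.3 ± 11.5 CPM and 24.2 ± 3.43 CPM (SD, n = 4 each), with a log2 fold change of 0.0015 (SE 0.32). Msi1 (chromosome 5, 115429599 to 115455698, plus strand), the RNA-binding protein Musashi-1, which controls translation in progenitor cells, varied least of the 10. It was at 34.7, 32.2, 32.8 and 20.6 CPM in labelled KO replicates 1 to 4, against 37.0, 27.6, 31.2 and 28.5 CPM in WT replicates 1 to 4. Apart from labelled KO replicate 4, all values lay between 27.6 and 37.0 CPM. The log2 fold change of Msi1 was -0.047 (SE 0.18), a ratio of 0.968 with an interval of 0.760 to 1.23, the narrowest among the markers.

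Olfm4 (chromosome 14, 79984081 to 80023139, plus strand), a secreted glycoprotein that is among the most abundant transcripts of these cells, was at 2562, 1698, 2354 and 840 CPM in labelled KO replicates 1 to 4, against 2933, 1589, 1524 and 1886 CPM in WT replicates 1 to 4. Labelled KO replicate 4 was below the 7 other libraries, which overlapped between the groups. The log2 fold change was -0.089 (SE 0.37), and 0.16 without that replicate. Smoc2 (chromosome 17, 14279506 to 14404790, plus strand), a secreted calcium-binding matrix protein, was at 128, 102, 150 and 68.4 CPM in labelled KO replicates 1 to 4, against 153, 109, 85.7 and 117 CPM in WT replicates 1 to 4. It followed the same order as Olfm4 at both ends, with WT replicate 1 highest and labelled KO replicate 4 lowest. Its log2 fold change was -0.049 (SE 0.25), and 0.13 without labelled KO replicate 4.

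Prom1 (chromosome 5, 43993620 to 44102032, minus strand), the membrane glycoprotein CD133 found on membrane protrusions of stem and transit-amplifying cells, was at 85.2, 101, 218 and 62.9 CPM in labelled KO replicates 1 to 4. In WT replicates 1 to 4 it was at 180, 152, 92.2 and 118 CPM. The libraries labelled KO spanned a wider range than WT and enclosed it at both ends, with replicate 3 highest and replicate 4 lowest. The log2 fold change was -0.22 (SE 0.37), and -0.71 (SE 0.25) without labelled KO replicate 3, with an unadjusted p of 0.0204 and an adjusted p of 0.576 in edgeR's test; in that fit 8.62% of all genes were under an unadjusted 0.05. Slc12a2 (chromosome 18, 57878678 to 57946821, plus strand), the basolateral sodium-potassium-chloride cotransporter of crypt cells, was at 693, 506, 719 and 326 CPM in labelled KO replicates 1 to 4, against 678, 489, 435 and 489 CPM in WT replicates 1 to 4. Its log2 fold change was 0.10 (SE 0.27). Replicates 1 and 3 of the group labelled KO lay above every WT library and replicate 4 below every one. Cdca7 (chromosome 2, 72476159 to 72486893, plus strand), a cell-cycle-regulated partner of the chromatin remodeller HELLS, was at 145, 107, 152 and 64.5 CPM in labelled KO replicates 1 to 4, against 133, 123, 101 and 105 CPM in WT replicates 1 to 4. It showed the same arrangement, with a log2 fold change of 0.023 (SE 0.25). The 2 markers with a miR-29 site, Olfm4 and Cdca7, lay at -0.089 and 0.023. The 8 without one ran from -0.22 to 0.37. The intervals of the ratio were 0.567 to 1.56 for Olfm4 and 0.727 to 1.42 for Cdca7. An effect of miR-29 on these markers was not tested.

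**Figure D2:**
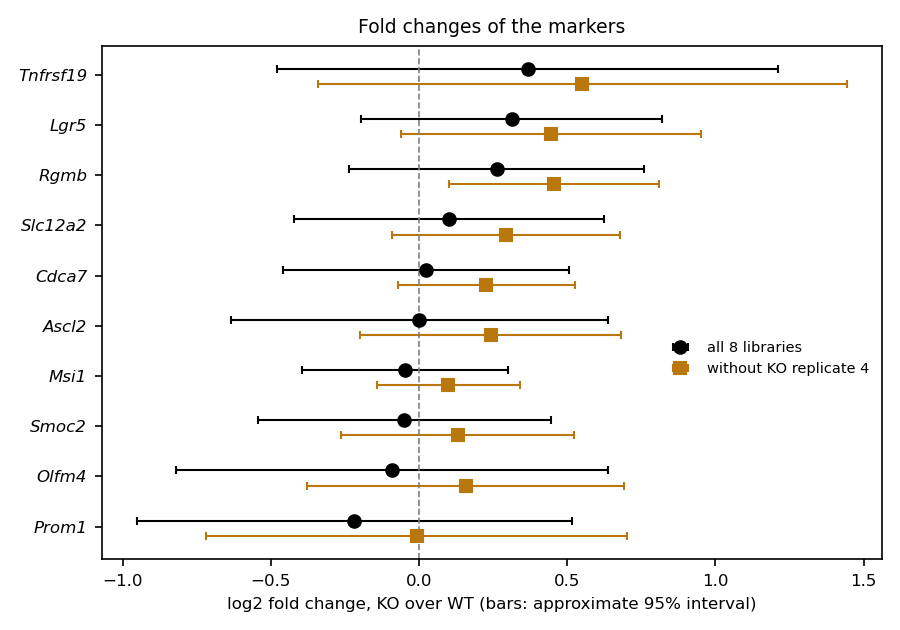
Log2 fold change of each marker, libraries labelled KO over WT libraries, with bars for the approximate 95% interval; circles use all 8 libraries and squares leave out labelled KO replicate 4. Every interval from 8 libraries includes 0, and 9 of 10 squares lie above 0 against 6 of 10 circles, the Rgmb square with its whole interval.

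Labelled KO replicate 4 was the lowest of the 8 libraries for 8 of 10 markers, the exceptions being Lgr5, lowest in WT replicate 3, and Tnfrsf19, lowest in WT replicate 4. This library was the lowest for 29.1% of all tested genes. All 10 markers lay below their own 8-library median in it, by a median of 0.68 on the log2 scale and by 0.14 to 1.19. WT replicate 1 and labelled KO replicate 3 had no marker below its median, with median deviations of 0.44 and 0.41. In labelled KO replicate 1 the median deviation was 0.45, and Prom1 alone lay below its median, at -0.36. In the other 4 libraries the median deviations ran from -0.21 to -0.027. Over all tested genes the median deviation of each library was between -0.017 and 0.0055, which the scaling of the libraries itself brings near 0. The 10 markers summed to 3985, 2770, 3885 and 1529 CPM in labelled KO replicates 1 to 4. In WT replicates 1 to 4 they summed to 4388, 2657, 2455 and 2925 CPM. Olfm4 made up most of the sum in every library. Without Olfm4 the sums were 1423, 1072, 1531 and 688 CPM in labelled KO replicates 1 to 4. They were 1455, 1068, 932 and 1039 CPM in WT replicates 1 to 4.

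No marker passed the threshold when any single library was left out. An unadjusted p under 0.05 in edgeR's test came in 1 of 10 markers without labelled KO replicate 3, labelled KO replicate 4 or WT replicate 1. The shares of all genes in these fits were 8.62%, 3.31% and 4.06%. Leaving out any other library gave 0 of 10. The direction of the set depended on which library was left out. Without labelled KO replicate 4, which was singled out after its values were seen, 9 of 10 markers lay above 0 and the median log2 fold change was 0.24, against 48.5% of all genes above 0 and a median of -0.0068. The exception was Prom1, at -0.0071. Without WT replicate 1 the count was also 9 of 10, with a median of 0.14, against 53.5% of all genes. Without labelled KO replicate 1 or 3 the count was 3 of 10, with medians of -0.094 and -0.11, against 51.3% and 51.0% of all genes; Lgr5, Rgmb and Tnfrsf19 were the markers above 0 in both. Without labelled KO replicate 2 it was 6 of 10, against 51.5% of all genes, and without WT replicate 2, 3 or 4 it was 6, 5 and 4 of 10, against 51.7%, 51.6% and 51.7%.

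Levels per gene length were compared with the FPKM values of the authors (counts relative to library size and to the gene length in the deposited table). Olfm4 stood far above the rest, at a median of 599 FPKM over 8 libraries (283 to 972), and its range did not overlap that of any other marker. Slc12a2 followed at 45.1 (29.8 to 65.4) and Cdca7 at 35.5 FPKM (20.1 to 47.3); their ranges overlapped, but Slc12a2 was the higher in all 8 libraries. Smoc2, Rgmb, Ascl2 and Prom1 had medians of 16.1, 15.7, 15.6 and 15.1 FPKM with overlapping ranges and no fixed order among libraries. Msi1 at 5.40 FPKM (3.55 to 6.26) and Lgr5 at 5.0 FPKM (4.19 to 9.50) also overlapped, and each was the higher in 4 libraries. The Lgr5 value uses a gene length of 10264 bases. Tnfrsf19 was lowest, at 2.74 FPKM (1.69 to 5.84), below Lgr5 in all 8 libraries.

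**Figure D3:**
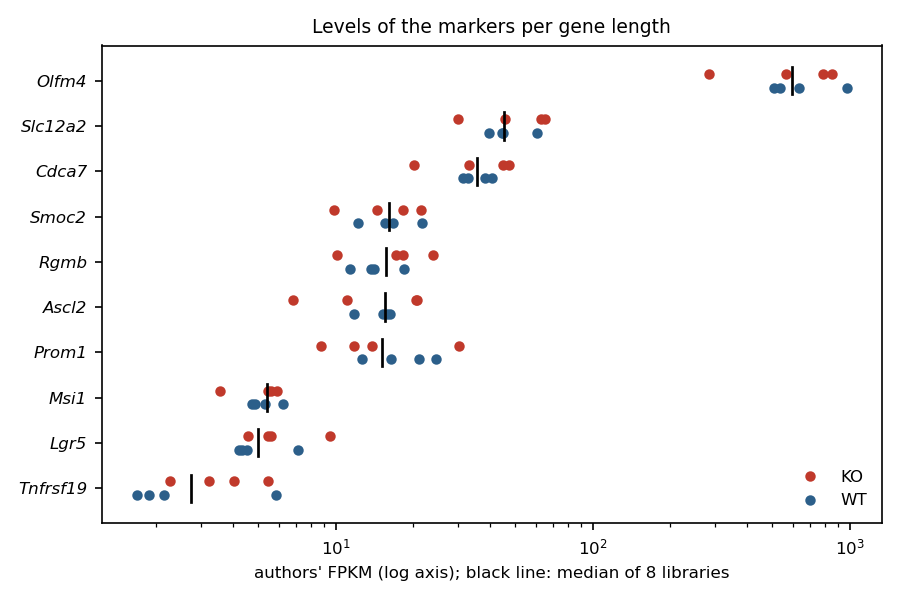
Authors' FPKM of the 10 markers on a log axis, with libraries labelled KO above and WT below in each row and a black line at the median of 8 libraries. Olfm4, at a median of 599, stands apart; Smoc2, Rgmb, Ascl2 and Prom1 share one level near 15 to 16.

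The markers moved together from library to library. Over the 45 pairs, Pearson's r of log2 CPM across the 8 libraries had a median of 0.75 and ranged from 0.10 to 0.96, and all 45 were above 0. Among all pairs of tested genes the median r was 0.0005, and 3.46% had an r above 0.8, against 42.2% of the marker pairs (19 of 45). All pairs share the same 8 libraries and scaling, so they are not independent of each other. Exact permutation tests over pairings gave 15 of 45 pairs past an adjusted p of 0.05 with Pearson's r and 4 of 45 with Spearman's rho (Benjamini-Hochberg over the 45 pairs). The share of all tested gene pairs past this test was not worked out, so these counts do not set the markers apart. With the group means removed the median r was 0.80. Without labelled KO replicate 4 it was 0.73, with 43 of 45 pairs above 0. In those 7 libraries 28.9% of marker pairs had an r above 0.8, against 2.64% of all pairs. Without the 2 libraries farthest from the median of a pair's first gene, the median r was 0.61.

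**Figure D4:**
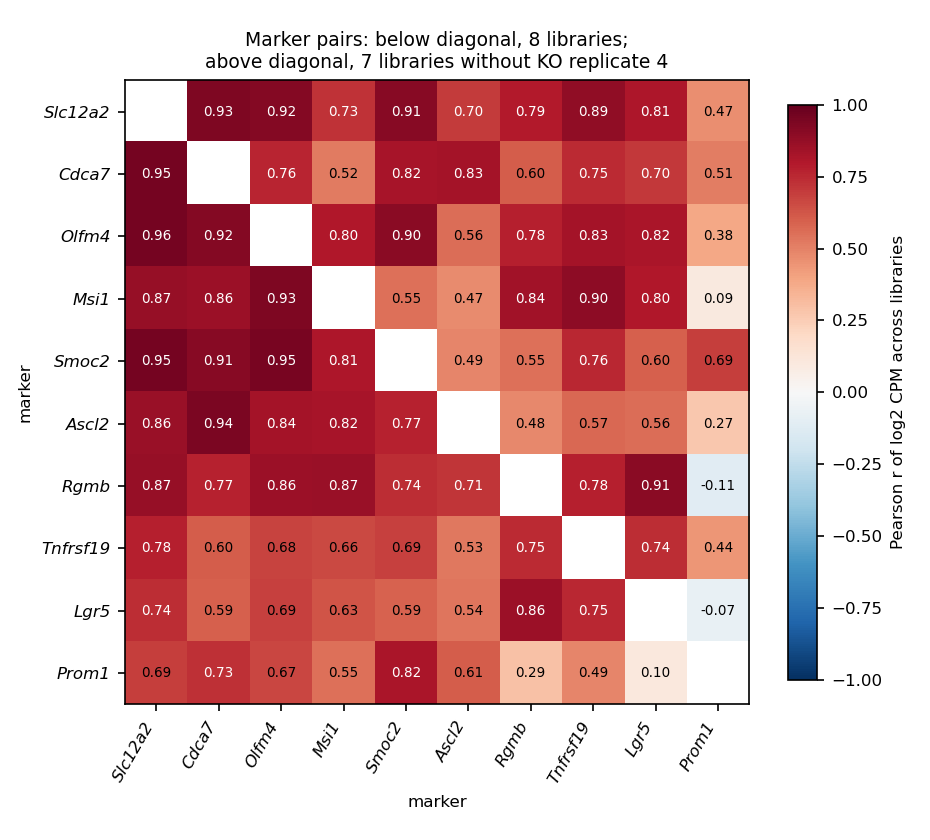
Pearson r of log2 CPM for each pair of markers, over 8 libraries below the diagonal and over 7 libraries, without labelled KO replicate 4, above it; markers run from the highest to the lowest median r. Slc12a2, Cdca7, Olfm4, Msi1, Smoc2 and Ascl2 form a block of 0.77 to 0.96 over 8 libraries, which spreads to 0.47 to 0.93 without labelled KO replicate 4, and Lgr5 with Prom1 is the lowest pair below the diagonal, at 0.10.

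Slc12a2 and Cdca7 followed each other most closely by rank, and Slc12a2 and Olfm4 by Pearson's r. For Slc12a2 and Cdca7, r was 0.95 (exact permutation p = 4.46e-04, adjusted p = 0.0156) and rho 0.98 (exact permutation p = 3.97e-04, adjusted p = 0.0171). Without the 2 libraries farthest from the median of Slc12a2, r was 0.90. For Olfm4 and Slc12a2, r was 0.96 (exact permutation p = 0.00288, adjusted p = 0.0195) and rho 0.83 (exact permutation p = 0.0154, adjusted p = 0.0653), and r was 0.95 without the 2 farthest libraries. Olfm4 and Smoc2, the 2 secreted proteins, had an r of 0.95 (exact permutation p = 6.94e-04, adjusted p = 0.0156) and a rho of 0.95 (exact permutation p = 0.00114, adjusted p = 0.0171), with an r of 0.86 without the 2 farthest libraries.

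Ascl2 went most closely with Cdca7, at an r of 0.94 (exact permutation p = 0.00322, adjusted p = 0.0195) and a rho of 0.81 (exact permutation p = 0.0218, adjusted p = 0.0653), and an r of 0.82 without the 2 farthest libraries. Lgr5 stood further from the others, with a median r of 0.63 to them against 0.87 for Slc12a2. By Pearson's r its closest marker was Rgmb, at an r of 0.86 (exact permutation p = 0.00471, adjusted p = 0.0195) and a rho of 0.79 (exact permutation p = 0.0279, adjusted p = 0.0661), with an r of 0.71 without the 2 farthest libraries. Both were highest in labelled KO replicate 1. By rank its closest marker was Tnfrsf19, at a rho of 0.86 (exact permutation p = 0.0107, adjusted p = 0.0603) and an r of 0.75 (exact permutation p = 0.0428, adjusted p = 0.0641), with an r of 0.90 without the 2 farthest libraries. Lgr5 and Ascl2, receptor and transcription factor of the same cells, had an r of 0.54 (exact permutation p = 0.117, adjusted p = 0.132) and a rho of 0.55 (exact permutation p = 0.171, adjusted p = 0.197); r was 0.26 without the 2 farthest libraries. The lowest pair was Lgr5 with Prom1, at an r of 0.10 (exact permutation p = 0.81, adjusted p = 0.81) and a rho of 0.14 (exact permutation p = 0.752, adjusted p = 0.752), and r was 0.47 without the 2 farthest libraries. Prom1 had its highest r with Smoc2, 0.82 (exact permutation p = 0.0132, adjusted p = 0.0397), with a rho of 0.71 (exact permutation p = 0.0576, adjusted p = 0.0836) and an r of 0.61 without the 2 farthest libraries.

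The genes most like a marker were looked for among 9789 tested genes with a mean log2 CPM above 3, as a description over 8 libraries. For Olfm4 they were Lrig1, Gle1 and Bola1, with r of 0.984, 0.981 and 0.981. Lrig1, an inhibitor of ErbB receptors that is itself a marker of crypt stem cells, ranked the 8 libraries in the same order as Olfm4 (rho 1). For Lgr5 they were Zfp36l1, an RNA-binding protein of mRNA decay, Gm830 and Rin2, with r of 0.959, 0.957 and 0.956. For Cdca7 they were Qtrt2, Slain1 and Rack1, with r of 0.983, 0.981 and 0.980. Without labelled KO replicate 4 these 9 values ran from 0.93 to 0.96. Many other genes followed a marker more closely than some of the markers did. Among 9788 genes ranked by r with Olfm4, the other markers ran from rank 46 (Slc12a2) to rank 2264 (Prom1). For Lgr5 they ran from 34 (Rgmb) to 4259 (Prom1), and for Cdca7 from 42 (Slc12a2) to 2752 (Lgr5).

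Promoter sequence was read for the 6 markers matched by symbol in the RefSeq table, Ascl2, Olfm4, Rgmb, Tnfrsf19, Prom1 and Cdca7, in 10 windows of 250 bases before to 50 bases after a start site. Letters bound by the Wnt effectors TCF and LEF (CTTTG followed by 2 bases that are each A or T, on either strand) were in 1 of the 10 windows and in 16.9% of 32851 windows of all genes. The E-box CAGCTG, of the kind bound by basic helix-loop-helix factors, was in 1 of the 10 and in 16.3% of all. Both matches were at the second start site of Tnfrsf19, at positions -202 and -10 from it. That window and those of Olfm4 and Cdca7, which moved together and had no match, are shown 5' to 3' on the gene's strand (GRCm38.p6), with matches in capitals. No match says only that these letters are not in this window.
Tnfrsf19, chr14:61037938-61038237, minus strand: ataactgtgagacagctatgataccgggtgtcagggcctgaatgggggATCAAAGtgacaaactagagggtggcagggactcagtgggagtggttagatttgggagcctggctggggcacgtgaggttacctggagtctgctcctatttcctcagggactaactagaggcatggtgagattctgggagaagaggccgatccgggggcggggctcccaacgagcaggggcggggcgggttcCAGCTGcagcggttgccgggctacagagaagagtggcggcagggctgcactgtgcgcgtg
Olfm4, chr14:80000052-80000351, plus strand: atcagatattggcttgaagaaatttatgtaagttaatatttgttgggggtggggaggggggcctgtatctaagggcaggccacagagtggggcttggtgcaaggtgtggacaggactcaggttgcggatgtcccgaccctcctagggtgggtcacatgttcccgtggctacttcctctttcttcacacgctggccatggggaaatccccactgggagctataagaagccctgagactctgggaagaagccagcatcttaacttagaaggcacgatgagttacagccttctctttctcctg
Cdca7, chr2:72475969-72476268, plus strand: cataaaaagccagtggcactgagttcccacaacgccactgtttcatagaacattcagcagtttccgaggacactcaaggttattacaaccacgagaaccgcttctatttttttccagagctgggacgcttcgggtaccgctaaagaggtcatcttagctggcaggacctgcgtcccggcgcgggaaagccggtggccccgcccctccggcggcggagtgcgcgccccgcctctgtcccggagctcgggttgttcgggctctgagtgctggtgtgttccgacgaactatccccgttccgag

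Of 25 other markers of these stem cells, all tested, 0 passed the threshold in either direction. Above 0 lay 16 of them, against 52.0% of all genes, and their median log2 fold change was 0.10, against 0.011. They summed to 2014, 1487, 2283 and 1044 CPM in labelled KO replicates 1 to 4, against 2501, 1597, 1415 and 1668 CPM in WT replicates 1 to 4. Labelled KO replicate 4 was again lowest and WT replicate 1 highest. The smallest p-values were those of Rnf32, a RING finger gene, at a log2 fold change of 0.42 (SE 0.20), and Nr2e3, a nuclear receptor, at -0.56 (SE 0.41), both with adjusted p = 0.994 in edgeR's test.

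Gene lists of enterocytes, cycling cells and Paneth cells also varied between the same libraries. The 15 enterocyte genes summed to 26891, 31112, 13216 and 71830 CPM in labelled KO replicates 1 to 4, against 16416, 31770, 30646 and 28360 CPM in WT replicates 1 to 4. The library lowest in stem cell markers was thus the highest in enterocyte genes, and labelled KO replicate 3 and WT replicate 1, high in stem cell markers, were the lowest in enterocyte genes. In each of the 8 libraries the summed stem cell markers and the summed enterocyte genes lay on opposite sides of their own medians. Labelled KO replicate 2 and WT replicate 4 lay close to both medians. Without Olfm4, which made up most of the marker sum, both sums lay on the same side in these libraries. The 20 genes of cycling cells summed to 1702, 1406, 2112 and 901 CPM in labelled KO replicates 1 to 4, against 2146, 1853, 1544 and 1947 CPM in WT replicates 1 to 4, again lowest in labelled KO replicate 4. The 14 Paneth cell genes summed to 49482, 70544, 40361 and 21439 CPM in labelled KO replicates 1 to 4, against 27514, 25310, 33145 and 32538 CPM in WT replicates 1 to 4. Their highest library, labelled KO replicate 2, was not among those high in stem cell markers. The part of these cell types in the marker levels was not tested.

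**Figure D5:**
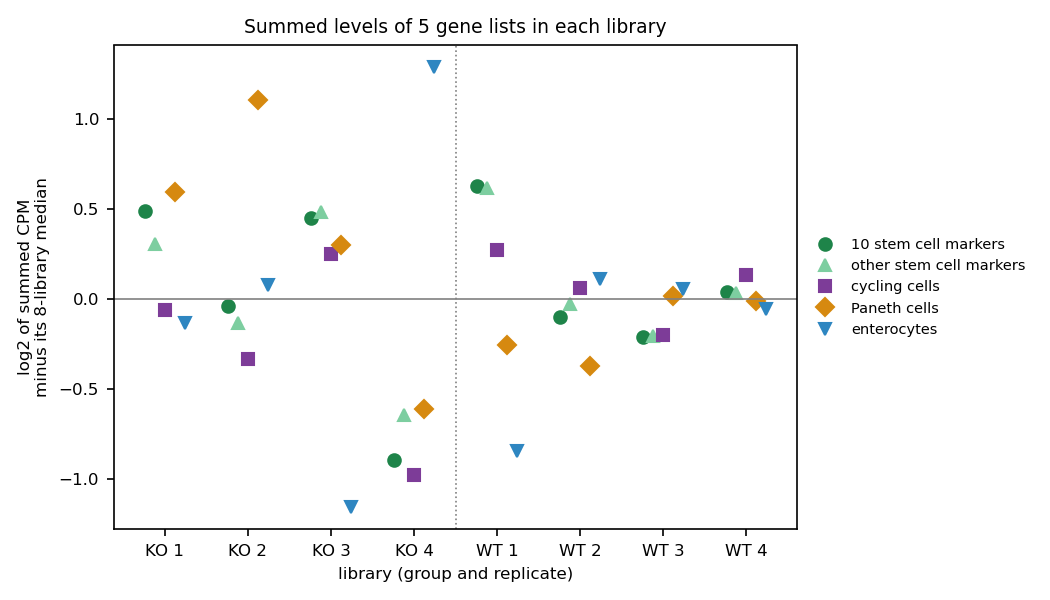
Log2 of the summed CPM of 5 gene lists in each library, minus the 8-library median of that list, with libraries labelled KO left of the dotted line and WT right of it. The summed 10 stem cell markers and 25 other markers lie on the same side of 0 in each of the 8 libraries. The enterocyte list lies on the other side in each. Most of the 10-marker sum is Olfm4. Without it the sums of labelled KO replicate 2 and WT replicate 4 change sides, to the side of the enterocyte list.

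None of the genes in these lists passed the threshold. Among all tested genes 52.0% lay above 0, with a median log2 fold change of 0.011. Without labelled KO replicate 4 these were 48.5% and -0.0068. Of the cycling genes 1 of 20 lay above 0 and the median log2 fold change was -0.30, which was -0.093 without labelled KO replicate 4. Mcm7 and Mcm6, subunits of the replicative helicase, had the smallest p-values, at -0.34 (SE 0.18) and -0.37 (SE 0.20). Of the Paneth cell genes 13 of 14 lay above 0, with a median of 0.35, which was 0.59 without labelled KO replicate 4; Habp2, a serine protease gene, had 0.77 (SE 0.24) and Defa21, a defensin gene, 1.39 (SE 0.50). Of the enterocyte genes 13 of 15 lay above 0, with a median of 0.33, which was -0.19 without labelled KO replicate 4; Apoc3 and Apoa1, apolipoprotein genes, had 0.75 (SE 0.45) and 0.82 (SE 0.56). All 6 genes had adjusted p = 0.994 in edgeR's test.

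Genes of the remaining cell types were read as a check on cell content. None of their genes passed the threshold except Cblif, the gastric intrinsic factor, 1 of 4 tested stomach genes (median 0.067, and 0.032 without labelled KO replicate 4). Cblif averaged 13.6 ± 7.48 CPM in libraries labelled KO and 0.553 ± 0.338 CPM in WT libraries (SD, n = 4 each), and its log2 ratio in edgeR was 4.61 (SE 0.53, adjusted p = 0.0496). That call sat at the threshold: 5 of 14 alternatives made it, with adjusted p-values from 4.85e-16 with DESeq2 to 0.33 in edgeR without WT replicate 2. The median log2 fold change, followed by its value without labelled KO replicate 4, was -0.10 and 0.052 over 9 goblet cell genes, 0.0081 and 0.20 over 10 enteroendocrine genes and -0.49 and -0.35 over 9 tuft cell genes. Among blood cell lists, in the same order, it was -0.37 and -0.70 over 11 T cell genes, -0.90 and -0.71 over 8 genes of B and plasma cells, and -0.26 and -0.18 over 7 of myeloid cells. Over 4 red blood cell genes it was 1.47 and 0.53; their summed level was 55.1 CPM in labelled KO replicate 4, against 8.90 to 14.3 CPM in the other libraries labelled KO and 2.69 to 15.03 CPM in WT libraries. It was -0.39 and -0.60 over 4 fibroblast and smooth muscle genes, -0.34 and -0.60 over 2 endothelial genes, 0.025 and -0.13 over 7 epithelial genes and 0.020 and -0.046 over 3 colon genes.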

How the data were processed

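Total RNA (TRIzol) went into strand-marking NEBNext libraries, per the labels' protocols. The tools HISAT2 and DESeq2 appear, with no version, per the submitters' processing notes. Not given in the sources used here are the read counter, strand setting, annotation and build. The deposited table holds raw counts per gene for 8 libraries, FPKM by the authors, and the authors' group means, a signal of counts over size factors. It adds the authors' own comparison as log2 fold changes with p-values: for the markers, the authors' deposited table has log2 fold changes of -0.21 to 0.37 and p-values of 0.261 to 0.992. A second deposited table holds FPKM of 670 genes, none of them a marker. Gene coordinates were identical to GENCODE M21 (GRCm38) for 99.5% of 55144 shared identifiers and for all 10 markers.

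The deposited counts went into edgeR 4.0.16 under R 4.3.3 (quasi-likelihood test, robust, TMM, filterByExpr, Benjamini-Hochberg over 14897 genes, threshold 0.05). The SE is the absolute log2 fold change over the square root of F, and 95% intervals are normal approximations from it. Log2 CPM use a prior count of 2. Correlations and permutation tests were run in Python 3.11.15; two-sided p-values double the smaller tail. The tests were checked on simulated data. The alternatives tried were DESeq2 1.42.0, limma-voom (limma 3.58.1), RLE scaling, other filters, a replicate block, and leaving out each library.

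The markers, the 16 other lists and the rules were chosen with earlier results of these data known. Genes were named by rule: the markers, the miR-29 locus, the 2 smallest p-values of a list (or up to 3 called genes), and the 3 genes most like Lgr5, Olfm4 and Cdca7. Named outside these rules were Epcam, Lyz1, Col3a1 and Pdgfra for cell content, and A930009A15Rik, which overlaps Lgr5. For lists that bear on no marker result, medians alone are given. Marker counts ran from 120 to 47877 per library, so counting error was at most 9.13%; reads carry no molecular identifiers, so this covers counting alone. Within a group, every 2 libraries differed by more than sampling noise (lowest chi-square over its degrees of freedom 28.9).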

Additional observations from a re-analysis of the deposited data

Results flagged for a closer look

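Of 20 groups of 4 libraries, 10 markers in each of the 2 groups, 2 held a library far from the other 3 of its group, and chance alone flags about 1 in 20 such groups. Msi1 in labelled KO replicate 4 was 20.6 CPM, against 32.2 to 34.7 CPM in the remaining 3 of the group, and its gap was 0.857 of the group's log2 range. Lgr5 in WT replicate 1 was 74.5 CPM, against 43.4 to 46.5 CPM in the other 3 WT libraries, with a gap of 0.876 of the range.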

How the results depend on the processing

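The count of markers past the threshold was 0 under every alternative run, and none of the 150 alternative fits of a single marker gave a call. The count of all genes past the threshold was 3, 22 with DESeq2, 5 without a filter and 2 to 3 when single libraries were left out. Leaving out single libraries moved log2 fold changes through 0 for Ascl2 (-0.20 to 0.24), Olfm4 (-0.28 to 0.16), Smoc2 (-0.22 to 0.13), Slc12a2 (-0.041 to 0.29), Cdca7 (-0.13 to 0.23) and Msi1 (-0.12 to 0.099). It did not for Lgr5 (0.043 to 0.53), Rgmb (0.068 to 0.46), Tnfrsf19 (0.13 to 0.97) and Prom1 (-0.71 to -0.0071). Ascl2 was at -0.12 with limma-voom, -0.12 with the replicate block and -0.13 as a difference of mean log2 CPM; Cdca7 was at -0.053, -0.044 and -0.045. In the main edgeR fit, which had no replicate block, they were at 0.0015 and 0.023. The cause was not tested.

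Same-numbered libraries had correlations of -0.39 to 0.075 in their deviations from the group means. Of 4 libraries labelled KO, 1 correlated best with its own number. With 4 libraries a group, these values cannot decide whether replicate numbers pair the libraries. With the replicate block 2 genes passed, none a marker. Lgr5 was then at 0.29 with an SE of 0.13, against 0.26 without the block. Its unadjusted p in edgeR's test was 0.0547 with the block, and its adjusted p 0.999. The SE rose with the block for Smoc2 (to 0.256) and Prom1 (to 0.401) and fell for the other markers. The median r of marker pairs was 0.57 with replicate means removed (replicate block), against 0.75 in the reported values and 0.73 to 0.80 when single libraries were left out. With 4 libraries a group, intervals of single markers reach from 1.23-fold (Msi1) to 2.32-fold (Tnfrsf19) higher.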
